A study of Homo sapiens with 6 samples.

Results

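The genes described here are epidermal regulators linked to RIPK4 in keratinocytes: the transcription factors GRHL1, GRHL2, GRHL3, KLF4, OVOL1, TP63, TFAP2A and TFAP2C, and the lipid enzyme ELOVL4. They are 9 genes of epidermal differentiation and barrier lipid synthesis, taken by name. Of the 9, 7 have a row among the 24526 genes of the count table, and GRHL2 and OVOL1 have no row in the table used here. Counts of RNA read pairs per gene were measured in WM266.4, an established human melanoma cell line, 48 h after transfection with siRNA (short paired RNA strands by which cells break down matching transcripts). The neg.si group (3 libraries) received a negative control siRNA and the RIPK4.si group (3 libraries) an siRNA against RIPK4, and nothing else is given as differing between the groups. The study describes the 3 libraries of a group as biological replicates, and its heatmap captions speak of 3 independent experiments. RIPK4 was silenced with 1 siRNA design, so loss of RIPK4 and other effects of that siRNA cannot be told apart. Silencing was transient and partial, and RNA alone is described, not protein.

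RIPK4 is a kinase needed for the terminal differentiation of keratinocytes, the main cells of the epidermis. In the same tissue TP63 is the master regulator of stratified epithelia, GRHL3, OVOL1 and KLF4 drive barrier formation, and ELOVL4 extends the very long fatty acids of barrier ceramides. The AP-2 factors TFAP2A and TFAP2C act in epidermis as well as in the neural crest and its descendants, the melanocytes, from which melanoma arises.

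The libraries held between 28464057 and 31688095 counts on genes. Levels are given as CPM, which are counts scaled to the normalised size of the library. The leading principal component of log2 CPM held 44.9% of the variance. On it neg.si replicate 3 (56.1) and RIPK4.si replicate 2 (-41.5) lay furthest apart. The second component (25.6%) ran from 8.55 to 34.3 in neg.si and from -23.9 to -19.6 in RIPK4.si. For each gene the deviation of its log2 CPM from its mean over the 6 libraries was also set against GC content. These deviations were related to GC content in opposite ways within the neg.si group (Spearman rho 0.569 for replicate 1, -0.561 for replicate 3). Differences were tested with edgeR's quasi-likelihood test over the 16297 genes that passed its filter on low counts, and a gene is said to have risen or fallen only where its p, adjusted over all of these by the Benjamini-Hochberg method, was under 0.05. Fold changes are log2 of RIPK4.si over neg.si.

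In what follows control means neg.si, silenced means RIPK4.si, and values of a group are listed in the order of its replicates. RIPK4, on chromosome 21, had 2656, 2298 and 1739 control counts against 585, 482 and 670 silenced counts. Every silenced library lay below every control library, and the RIPK4.si mean was 26.8% of the neg.si mean on the CPM scale. RIPK4 fell, with a log2 fold change of -1.90 (95% interval -2.36 to -1.44, adjusted p = 0.0102 by edgeR's quasi-likelihood test). By the same edgeR test the call was lost on removal of neg.si replicate 2 (adjusted p = 0.106) or of RIPK4.si replicate 1, 2 or 3 (adjusted p = 0.0940, 0.0622 and 0.0725), while the log2 fold change stayed between -2.06 and -1.74 whichever library was left out. RIPK4 shares 461 exon bases with an unnamed gene of the opposite strand.

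The labelled cell type was checked against marker genes. Of 18 melanocyte lineage genes with a row, 17 passed the filter, led per kilobase of exon by TYR, the enzyme that starts melanin synthesis (436 CPM per kb over the 6 libraries). The melanocyte regulators MITF and SOX10 stood at 47.5 and 72.3 CPM per kb. Of 14 keratinocyte markers, 12 have a row and 6 passed the filter. The most abundant of them was KRT10 (5.65 CPM per kb), while the defining basal keratins KRT5 and KRT14 were at 0 in 4 of the 6 libraries. Summed over the keratinocyte markers the control libraries held 22.7, 19.6 and 17.7 CPM and the silenced libraries 23.3, 24.6 and 19.0 CPM. In bulk RNA, fewer cells that use a gene and less of its RNA in each cell cannot be told apart.

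**Figure D1:**
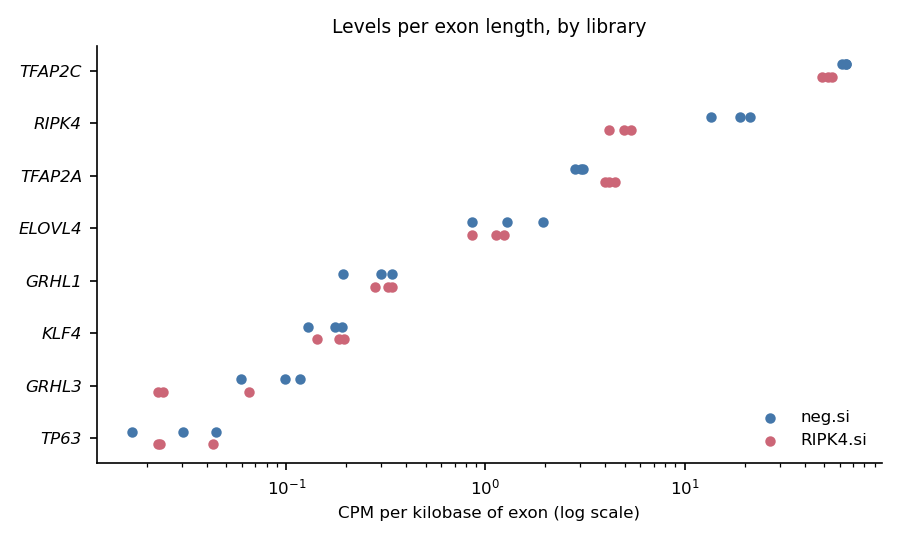
Level of each named gene with a row, and of RIPK4, in CPM per kilobase of exon on a log axis, 1 point per library (blue neg.si, red RIPK4.si). TFAP2C lies above 49 CPM per kb in every library, while GRHL3 and TP63 lie below 0.12 CPM per kb.

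Set side by side per kilobase of exon, the 7 genes spanned a wide range in these melanoma cells. TFAP2C was the most abundant, at 57.9 CPM per kb over the 6 libraries, which placed it at percentile 97.7 of all genes with a known exon length, and its lowest library (49.0) lay above the highest library of every other gene plotted. TFAP2A followed at 3.58 CPM per kb and ELOVL4 at 1.22 CPM per kb. GRHL1 (0.296 CPM per kb) and KLF4 (0.170 CPM per kb) came next, and since 1 neg.si library of GRHL1 reached down to 0.193, these neighbours were within each other's spread. GRHL3 (0.0643 CPM per kb) and TP63 (0.0301 CPM per kb) were lowest and also within each other's spread.

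Levels were also compared with those of the relatives of each gene. Among the AP-2 genes TFAP2C and TFAP2A led TFAP2E (0.719 CPM per kb) and TFAP2B (0.160 CPM per kb), and TFAP2D has no row in the table used here. KLF4, TP63 and GRHL1 were below the relatives named here. KLF4 lay under KLF9 (17.3 CPM per kb), KLF10 (13.8 CPM per kb) and KLF6 (11.8 CPM per kb), TP63 under TP73 (0.602 CPM per kb), and GRHL1 under its relatives UBP1 (12.6 CPM per kb), TFCP2 (5.01 CPM per kb) and TFCP2L1 (2.78 CPM per kb). ELOVL4 lay under ELOVL1 (42.6 CPM per kb), ELOVL5 (24.7 CPM per kb) and ELOVL2 (17.8 CPM per kb), close to ELOVL6 (1.57 CPM per kb), and above ELOVL3 (0.257 CPM per kb) and ELOVL7 (0.0170 CPM per kb).

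Against the RIPK4 siRNA, 0 of the 5 named genes past the filter had an adjusted p under 0.05 by edgeR's quasi-likelihood test, where 125 of all 16297 genes did (0.767%; 61 rose and 64 fell). That total moved with single libraries. Removal of control library 1, 2 or 3 gave 70, 0 and 295 called genes, and removal of silenced library 1, 2 or 3 gave 0, 4 and 0. For the 5 named genes it was 0 in each of these fits. At an unadjusted p under 0.05 the count was 1 of 5, TFAP2A, against 10.8% of all genes. With the GC trends removed it was 2 of 5, TFAP2A and TFAP2C, against 2648 of all 16297 genes. The CPM of the groups did not overlap in 2 of 5, TFAP2A and TFAP2C, against 17.6% of all genes. DESeq2 called 0 of the 5, against 2.91% of the genes it gave an adjusted p, with 1 at an unadjusted p under 0.05. The median log2 fold change of the 5 genes was 0.07, beside -0.02 over all genes tested. The smallest absolute log2 fold change of a called gene was 0.75, which is larger than the estimate for each of the 5.

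**Figure D2:**
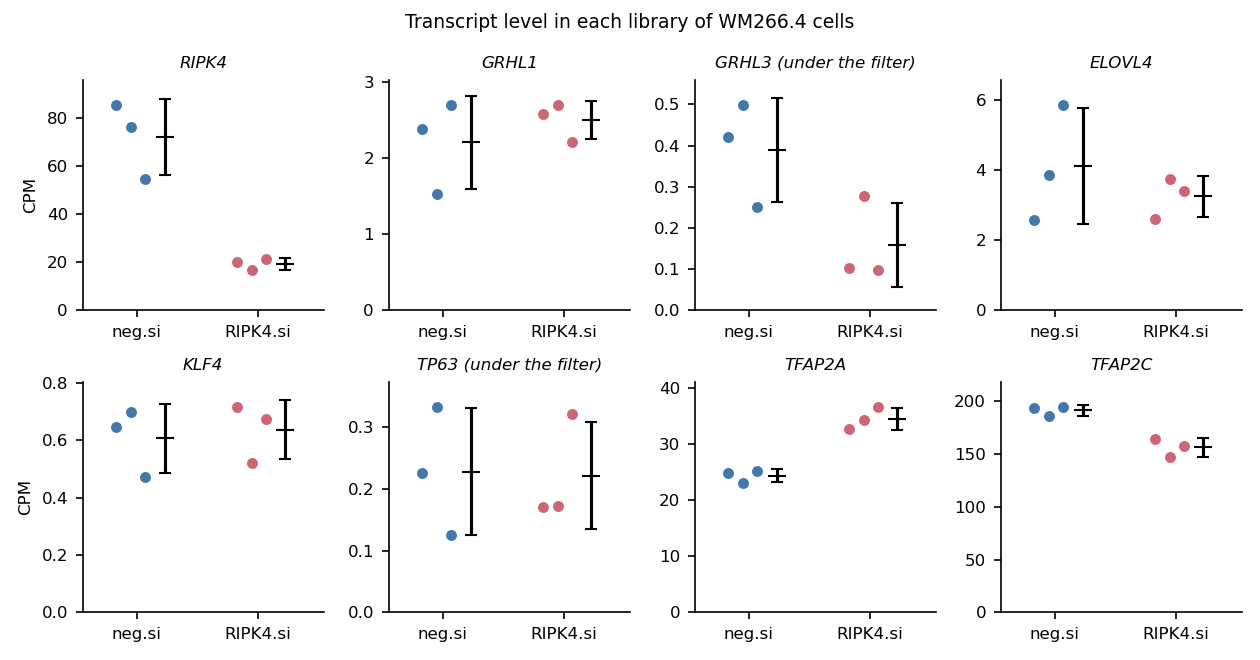
CPM of RIPK4 and the 7 named genes with a row in each library of neg.si (blue) and RIPK4.si (red); bars give the mean and SD of 3 libraries, and each vertical axis starts at 0 with its own scale. The groups are apart for RIPK4, TFAP2A and TFAP2C and overlap for the other genes.

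The grainyhead-like factors GRHL1 and GRHL3 switch on epithelial junction and barrier genes. GRHL1 lies on chromosome 2 from 9951693 to 10002277 on the plus strand of GRCh38. It had 74, 46 and 86 control counts and 76, 78 and 69 silenced counts. The silenced libraries all lay inside the range of the control libraries, whose lowest was replicate 2. The log2 fold change was 0.18 (95% interval -0.43 to 0.78, adjusted p = 0.916 by edgeR's quasi-likelihood test), and it was 0.26, -0.01 and 0.35 on removal of control library 1, 2 or 3. GRHL1 shares 158 and 86 exon bases with unnamed genes of the opposite strand, and because counting ignored strand their reads cannot be told apart.

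GRHL3, the grainyhead factor most tied to the final step of barrier formation, lies on chromosome 1 from 24319322 to 24364482 on the plus strand. The control counts were 13, 15 and 8 and the silenced counts 3, 8 and 3. The groups met at 8 counts, which neg.si replicate 3 and RIPK4.si replicate 2 both had, and the other silenced libraries were the lowest. The sum was 36 over neg.si (exact 95% Poisson interval 25.2 to 49.8) and 14 over RIPK4.si (7.65 to 23.5), where the intervals cover counting error only. GRHL3 did not pass the filter. Fitted with all genes of the table and no filter, its log2 fold change was -1.27 (95% interval -2.61 to 0.07, adjusted p = 0.609 by edgeR's quasi-likelihood test). Leaving out control library 3 gave -1.52 and control library 1 -1.20, and the widest values came from silenced libraries, -1.92 on removal of library 2 and -1.01 on removal of library 3.

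TP63 and KLF4 stand at opposite ends of the epidermal programme, TP63 in the basal layer and KLF4 in the layers that leave it. TP63, on chromosome 3 from 189631389 to 189897276 on the plus strand, had 7, 10 and 4 control counts and 5, 5 and 10 silenced counts. The groups overlapped, with sums of 21 and 20, and with no filter the log2 fold change by edgeR was -0.02, or -0.32 on removal of control library 3 and 0.36 on removal of control library 2. KLF4, on chromosome 9 from 107484852 to 107490482 on the minus strand, had 20, 21 and 15 control counts and 21, 15 and 21 silenced counts. The counts of both groups took the same range, and the log2 fold change was 0.07 (95% interval -0.72 to 0.87, adjusted p = 0.979 by edgeR's quasi-likelihood test). Its sign turned on removal of control library 3 (-0.07) or of silenced library 1 (-0.01), and it was 0.14 on removal of control library 1. KLF4 shares 357 exon bases with an unnamed gene of the opposite strand, whose reads cannot be told apart from its own.

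ELOVL4, the elongase of very long fatty acids, lies on chromosome 6 from 79914814 to 79947553 on the minus strand. It had 80, 116 and 186 control counts and 76, 108 and 106 silenced counts. The highest value belonged to neg.si replicate 3, and the other control libraries lay within the span of the silenced ones or just outside it. The level was 4.10 ± 1.65 CPM in control and 3.25 ± 0.591 CPM in silenced libraries (SD, n = 3 each). The log2 fold change of -0.34 (95% interval -1.04 to 0.36, adjusted p = 0.820 by edgeR's quasi-likelihood test) had an interval that spans 0. It turned to 0.02 when control library 3 was left out and was -0.56 when control library 1 was, the libraries with opposite trends on GC content. With the GC trends removed the log2 fold change was -0.27 (adjusted p = 0.654 by edgeR's quasi-likelihood test).

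TFAP2A lies on chromosome 6 from 10393186 to 10419659 on the minus strand, and TFAP2C on chromosome 20 from 56629306 to 56639283 on the plus strand. TFAP2A had 769, 694 and 802 control counts and 957, 990 and 1139 silenced counts. Every silenced library was above every control library. The TFAP2A level was 24.4 ± 1.13 CPM in control and 34.5 ± 2.01 CPM in silenced libraries (SD, n = 3 each), 141% of the neg.si level, with a log2 fold change of 0.50 (95% interval 0.17 to 0.83). The unadjusted p was 0.00711 and the adjusted p 0.196 by edgeR's quasi-likelihood test, so TFAP2A did not pass. DESeq2 gave an adjusted p of 0.0876. Over the alternatives the adjusted p by edgeR or DESeq2 ran from 0.0661 to 0.746 and the log2 fold change from 0.46 to 0.55. It was 0.53 on leaving out control library 3 and also 0.53 on leaving out control library 1.

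TFAP2C, the abundant AP-2 factor of these cells, had 5989, 5575 and 6182 control counts and 4816, 4249 and 4899 silenced counts. Here every silenced library was below every control library, the opposite order to TFAP2A. The TFAP2C level was 191 ± 4.87 CPM in control and 156 ± 8.60 CPM in silenced libraries (SD, n = 3 each), or 81.7% of control. For TFAP2C the log2 fold change of -0.29 had a 95% interval from -0.59 to 0.01 (unadjusted p = 0.0574, adjusted p = 0.486 by edgeR's quasi-likelihood test), so TFAP2C did not pass either. With control library 3 left out it was -0.28, and with control library 1 left out -0.27. With the GC trends removed the unadjusted p was 0.0366 and the adjusted p 0.260 by edgeR's quasi-likelihood test. With the replicate block as well they were 0.0451 and 0.286 by the same test.

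**Figure D3:**
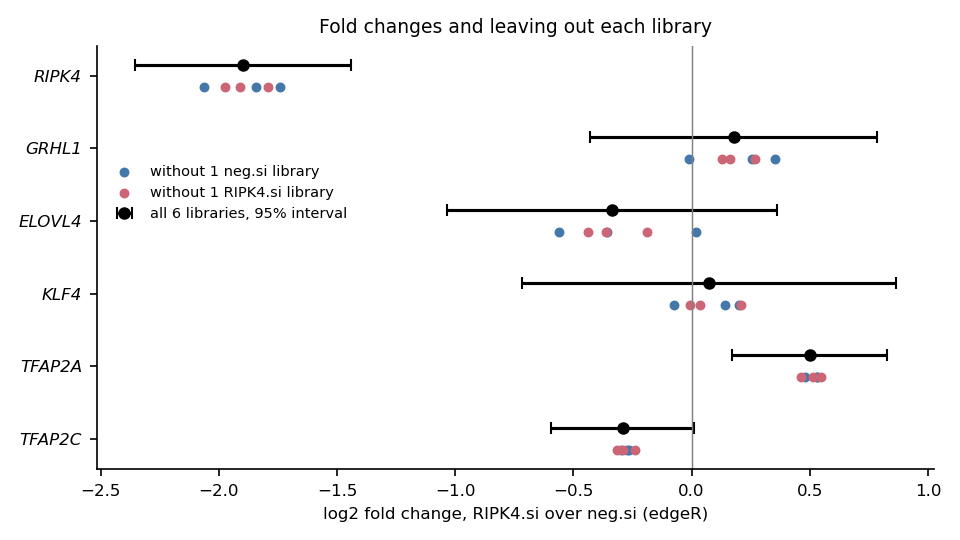
Log2 fold change of RIPK4 and of the 5 named genes past the filter from edgeR's quasi-likelihood fit, with its 95% interval over all 6 libraries (black) and the values with 1 neg.si library (blue) or 1 RIPK4.si library (red) left out. The values for TFAP2A stay between 0.46 and 0.55 and those for TFAP2C between -0.32 and -0.24, while those for ELOVL4, GRHL1 and KLF4 lie on both sides of 0.

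The balance of the pair was read within each library, where library size and normalisation drop out. There were 7.79, 8.03 and 7.71 TFAP2C counts per TFAP2A count in the control libraries and 5.03, 4.29 and 4.30 in the silenced libraries. The ratio was 7.84 ± 0.169 (SD, n = 3) in neg.si and 4.54 ± 0.425 (SD, n = 3) in RIPK4.si. The ratio was chosen after the values of both genes had been seen, and since every silenced library was higher in TFAP2A and lower in TFAP2C it had to separate the groups, so it adds no evidence to the tests of the genes, which neither passed. Per kilobase of exon TFAP2A made up 4.39% ± 0.0881 (SD, n = 3) of all AP-2 RNA in neg.si and 7.37% ± 0.614 (SD, n = 3) in RIPK4.si, and TFAP2C 94.2% and 91.2%. The summed AP-2 level was 67.7 ± 1.81 CPM per kb (SD, n = 3) in neg.si and 57.0 ± 2.83 CPM per kb (SD, n = 3) in RIPK4.si, so TFAP2C made up nearly all of it in both groups. Of the other AP-2 genes with a row, TFAP2B was at 0.998 ± 0.259 CPM in control and 0.969 ± 0.253 CPM in silenced libraries (SD, n = 3 each) with overlap (log2 fold change -0.05). TFAP2E was at 3.49 ± 0.113 CPM in control and 2.70 ± 0.357 CPM in silenced libraries (SD, n = 3 each) with no overlap, as in 17.6% of all genes (log2 fold change -0.37, adjusted p = 0.615 by edgeR's quasi-likelihood test).

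**Figure D4:**
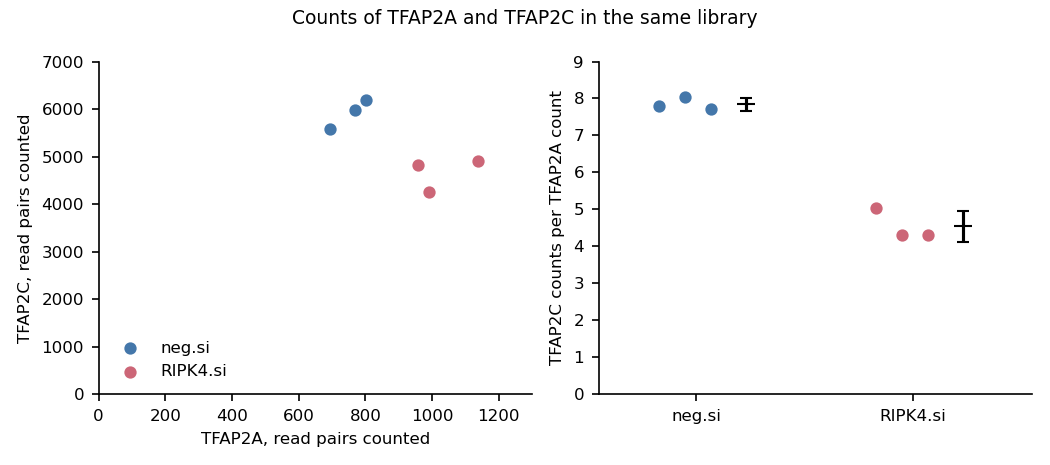
Left, read pairs counted for TFAP2C against TFAP2A in each library (blue neg.si, red RIPK4.si); right, TFAP2C counts per TFAP2A count, with the mean and SD of 3 libraries. The ratio spans 7.71 to 8.03 in neg.si and 4.29 to 5.03 in RIPK4.si.

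TFAP2A shares 438 exon bases with TFAP2A-AS1 and 941 with TFAP2A-AS2, both on the opposite strand, and strand was not used in counting. The antisense genes themselves had few counts. TFAP2A-AS1 had 46 over neg.si and 30 over RIPK4.si, and TFAP2A-AS2 had 77 and 104, beside 2265 and 3086 for TFAP2A. The groups overlapped for both antisense genes. How reads in the shared bases were assigned is not given in the sources used here. Whether any counts of TFAP2A came from antisense RNA, or were lost there, cannot be told. TFAP2C shares exon bases with no other annotated gene.

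Promoter sequence is shown for the members with the largest difference or with a match to the AP-2 letters. The RefSeq promoter table (GRCh38.p14) has an entry for 6 of the 9 genes, at 8 start sites, and GRHL2, OVOL1 and TFAP2C are without one. In the 250 bases before each start, both strands were searched for GCCNNNGGC (AP-2, in 19.8% of 35116 such windows), AACCGGTT (grainyhead-like, 0.117%), a 6-base OVOL core (2.45%) and the TATA box core of 6 bases (10.7%). These letters do not overlap in the windows shown, and capitals mark a match. TFAP2A has 2 start sites, of which the upstream one (chr6:10419660-10419909, minus strand) has the TATA box letters from 30 to 25 bases before the start and the downstream one (chr6:10412392-10412641, minus strand) has no match. GRHL3 has the AP-2 letters from 50 to 42 bases before its downstream start (chr1:24322790-24323039, plus strand), and KLF4 has them from 10 to 2 bases before its start (chr9:107489770-107490019, minus strand). The windows of ELOVL4, GRHL1, TP63 and the upstream start of GRHL3 held none of these letters, which says nothing of the factors. For TP63 the only window lies just before the first base of the gene, and any start inside the gene was not searched. A match is a description of the sequence only.
TFAP2A, upstream start: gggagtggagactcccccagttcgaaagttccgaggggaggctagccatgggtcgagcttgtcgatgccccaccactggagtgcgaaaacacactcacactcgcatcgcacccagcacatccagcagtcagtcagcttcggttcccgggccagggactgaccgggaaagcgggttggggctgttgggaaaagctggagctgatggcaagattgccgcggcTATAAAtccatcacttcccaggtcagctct
TFAP2A, downstream start: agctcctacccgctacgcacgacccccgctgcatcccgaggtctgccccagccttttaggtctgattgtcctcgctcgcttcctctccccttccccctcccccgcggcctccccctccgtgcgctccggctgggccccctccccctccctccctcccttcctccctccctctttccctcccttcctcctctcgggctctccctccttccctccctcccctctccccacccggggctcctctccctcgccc
GRHL3, downstream start: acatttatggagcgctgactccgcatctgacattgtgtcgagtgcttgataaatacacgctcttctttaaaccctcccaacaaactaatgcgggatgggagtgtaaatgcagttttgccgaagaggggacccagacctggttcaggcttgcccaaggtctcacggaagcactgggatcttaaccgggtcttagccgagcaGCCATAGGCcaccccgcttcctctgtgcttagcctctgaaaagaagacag
KLF4: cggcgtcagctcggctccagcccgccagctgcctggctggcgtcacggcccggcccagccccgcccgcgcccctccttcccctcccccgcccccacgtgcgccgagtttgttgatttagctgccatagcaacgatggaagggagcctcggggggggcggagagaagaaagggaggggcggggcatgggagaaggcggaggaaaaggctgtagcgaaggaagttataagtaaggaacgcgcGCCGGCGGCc

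Over the 6 libraries, the tested genes whose log2 CPM was most like that of TFAP2A were FBXO33 (Pearson r = 0.990), GTPBP3 (0.987) and ZNF883 (0.986). For TFAP2C they were AC005821.1 (r = 0.997), ABAT (0.996) and OSTF1 (0.995), and for ELOVL4 they were CISD2 (0.991), TMEM135 (0.988) and EIF3J (0.988). For GRHL1 they were AC012073.1 (r = 0.985), FAM151B (0.973) and GUSBP1 (0.972), and for KLF4 they were HLA-DQA1 (0.993), ZNF185 (0.986) and ACE (0.984). The 5 genes have no gene of these in common. Since 276 genes passed r = 0.9 with TFAP2A, 393 with TFAP2C, 332 with ELOVL4, 68 with KLF4 and 37 with GRHL1, such values over 6 libraries single out no partner. Among the genes named, FBXO33 rose (log2 fold change 1.10, adjusted p = 0.0398 by edgeR's quasi-likelihood test), a call kept only when the library left out was neg.si replicate 3.

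**Figure D5:**
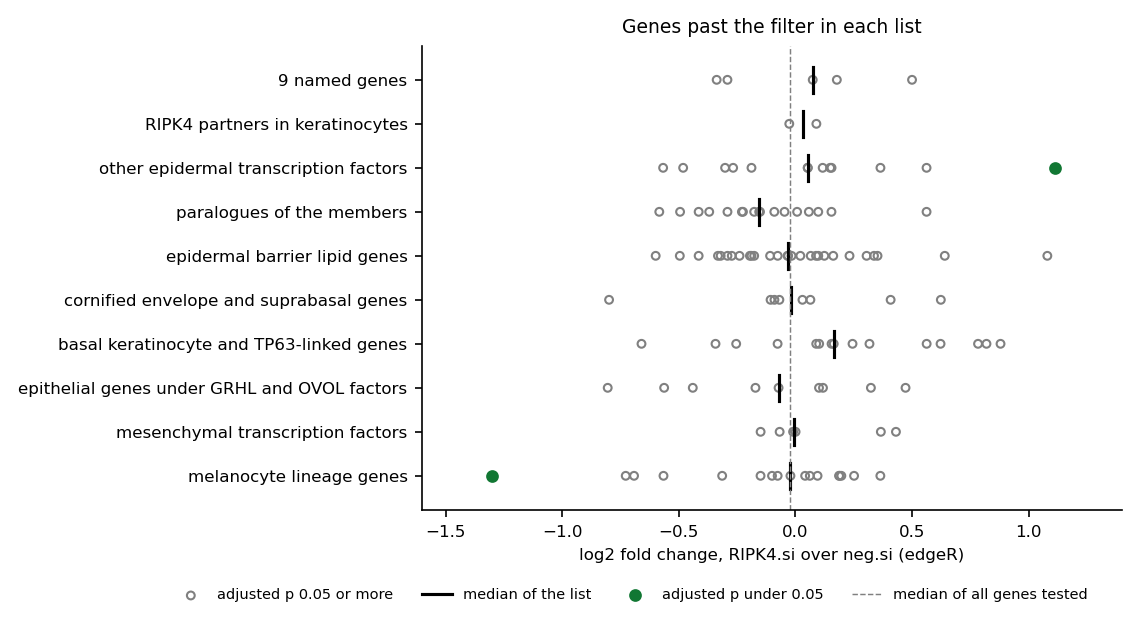
Log2 fold change from edgeR's quasi-likelihood fit of every gene past the filter in the 9 named genes and in 9 related lists; open points have an adjusted p of 0.05 or more, filled points an adjusted p under 0.05. The filled points are VDR at 1.11 and PMEL at -1.30, and the list medians lie between -0.16 and 0.16.

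The surroundings of the 9 genes in the epidermal pathway were read from lists of related genes. Each count can be set beside the shares over all genes, 0.767% called by edgeR, 10.8% at an unadjusted p under 0.05 and 2.91% called by DESeq2. Genes named below for an unadjusted p, for a call by DESeq2 alone or for being under the filter were chosen after their values were seen. Of the 5 proteins that RIPK4 acts with in keratinocytes, 2 passed the filter and 0 were called by edgeR (0 at an unadjusted p under 0.05 and 0 by DESeq2). PRKCD and DVL2 were the most abundant of them per kilobase, with log2 fold changes of 0.09 and -0.03. Of 22 other epidermal transcription factors with a row, 13 passed the filter, 1 rose (0.767% of all genes were called) and 2 had an unadjusted p under 0.05 (10.8% of all genes), VDR and EHF (log2 fold change -0.57, adjusted p = 0.358 by edgeR's quasi-likelihood test). The gene that rose was VDR, the vitamin D receptor, with 192, 163 and 153 control counts and 363, 362 and 333 silenced counts (log2 fold change 1.11, adjusted p = 0.0387 by edgeR's quasi-likelihood test). All silenced libraries were above all control libraries for VDR. That call was lost on removal of control library 2 or of any 1 silenced library. FOSL1 and HES1, the most abundant of this list per kilobase, had log2 fold changes of 0.15 and 0.05.

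Of 20 paralogues of the 9 genes with a row, 17 passed the filter and 0 were called by edgeR or DESeq2. TFCP2L1 (log2 fold change -0.58) and ELOVL2 (-0.49) were the 2 at an unadjusted p under 0.05, both lower in RIPK4.si. The median log2 fold change was -0.16, and 12 of the 17 were below 0. The most abundant per kilobase, ELOVL1 and ELOVL5, had log2 fold changes of -0.29 and -0.18. Of 34 barrier lipid genes with a row, 28 passed the filter and 0 were called by edgeR or DESeq2. The list had a median log2 fold change of -0.03 and 1 gene at an unadjusted p under 0.05, UGCG (log2 fold change -0.60). With the GC trends removed edgeR called UGCG, beside 564 of all 16297 genes, and with the replicate block as well it called 0 of the list. SCD, a fatty acid desaturase, was most abundant per kilobase, with a log2 fold change of 0.31. Among the enzymes that attach and oxidise the very long acyl chains made by ELOVL4 in epidermis, CERS3, ALOX12B and ALOXE3 were under the filter. A further 4 genes of the list, DEGS2, CYP4F22, PNPLA1 and SDR9C7, have no row in the table used here.

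Of 36 cornified envelope and suprabasal genes named, 15 have a row and 8 passed the filter. By edgeR 0 were called, with 2 at an unadjusted p under 0.05 (10.8% of all genes), KRT10 and FLG, and DESeq2 called 1 (2.91% of the genes it gave an adjusted p). That gene is FLG, which encodes filaggrin, at 6.28 ± 0.459 CPM in control and 3.61 ± 0.516 CPM in silenced libraries (SD, n = 3 each) (adjusted p = 0.130 by edgeR, 0.0478 by edgeR with the GC trends removed and 0.0446 by DESeq2). With the replicate block as well as the GC trends removed, edgeR called 0 of this list. CSTA and KRT10 were most abundant per kilobase, with log2 fold changes of -0.07 and 0.41. Of 23 basal keratinocyte and TP63-linked genes with a row, 15 passed the filter and 0 were called by edgeR, with 6 at an unadjusted p under 0.05 (10.8% of all genes were), 5 of them higher in RIPK4.si. These were IGFBP3 and, with log2 fold changes of 0.82, 0.56, 0.78 and 0.88, the Notch ligand JAG2, the hemidesmosome and basement membrane genes COL17A1 and LAMA3, and FERMT1. With the GC trends removed edgeR called 3 (564 of all 16297 genes), CDKN1A, IGFBP3 and LAMA3. With the replicate block as well it called 1 (498 of all 16297 genes), CDKN1A. DESeq2 called 1, IGFBP3, a secreted binder of insulin-like growth factors and the most abundant of the list per kilobase. IGFBP3 stood at 2300.0 ± 217 CPM in control and 3540.0 ± 131 CPM in silenced libraries (SD, n = 3 each) (log2 fold change 0.62, adjusted p = 0.130 by edgeR and 0.0108 by DESeq2). The groups did not overlap for IGFBP3. CDKN1A, next in abundance, had a log2 fold change of -0.66 (adjusted p = 0.258 by edgeR's quasi-likelihood test) with overlapping groups. The median log2 fold change of this list was 0.16, beside -0.02 over all genes tested, while TP63 itself had 21 and 20 counts.

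Of 20 epithelial genes under GRHL and OVOL factors with a row, 9 passed the filter and 0 were called by edgeR or DESeq2, with 2 at an unadjusted p under 0.05, ERBB3 and SPINT1 (log2 fold change -0.56). ERBB3 and ESRP1 were most abundant per kilobase, with log2 fold changes of -0.44 and 0.10, and the median was -0.07. The epithelial cadherin CDH1, a target of GRHL factors, was at 0.0453 CPM per kb. Of 7 mesenchymal transcription factors with a row, 6 passed the filter and 0 were called by edgeR or DESeq2, with 0 at an unadjusted p under 0.05. PRRX1 and SNAI2 were most abundant per kilobase of these, with log2 fold changes of 0.43 and 0.37.

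Among the 17 melanocyte lineage genes past the filter, 1 fell (0.767% of all genes were called). By edgeR 4 had an unadjusted p under 0.05 (10.8% of all genes), PMEL, DCT, EDNRB and TYR, each lower in RIPK4.si. PMEL, the fibril protein of pigment granules, was at 280.0 ± 31.5 CPM in control and 114 ± 8.11 CPM in silenced libraries (SD, n = 3 each) (log2 fold change -1.30, adjusted p = 0.0111 by edgeR's quasi-likelihood test). PMEL shares 89 exon bases with CDK2 on the opposite strand, which also fell (log2 fold change -0.81, adjusted p = 0.0355 by edgeR's quasi-likelihood test). The PMEL call was lost on removal of control library 2 or of any 1 silenced library, and that of CDK2 on removal of any library but control library 3. DESeq2 called 4 genes of the list (2.91% of the genes it gave an adjusted p), PMEL, DCT, EDNRB and TYR. With the GC trends removed edgeR called 3 (564 of all 16297 genes), PMEL, DCT and EDNRB. TYR and RAB38 were most abundant per kilobase, with log2 fold changes of -0.57 and 0.25. Summed over the list the control libraries held 4439, 4452 and 4372 CPM and the silenced libraries 3319, 3441 and 3407 CPM. The largest parts of these sums were TYR, with means of 1348 and 911 CPM, and DCT, with means of 699.6 and 423 CPM in control and silenced libraries. The median log2 fold change of the list was -0.02, close to that of all genes tested. MITF, which regulates many of these genes, had a log2 fold change of 0.04.

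Markers of other cells were also tested by edgeR and DESeq2. Called were 0 of 6 keratinocyte markers past the filter (KRT10 and S100A2 at an unadjusted p under 0.05), 0 of 6 fibroblast markers, 0 of 4 leukocyte markers and 0 of 3 endothelial markers (0 at an unadjusted p under 0.05 in the last 3 lists). The most abundant per kilobase were KRT10 and JUP, COL1A2 and THY1, HLA-DRA and CD14, and KDR and PECAM1. COL1A2 stood at 68.0 and HLA-DRA, which melanoma cells can also express, at 107 CPM per kb. All other fibroblast and leukocyte markers with a row stood below 1 CPM per kb, the highest being THY1 at 0.595 for fibroblasts and CD14 at 0.744 CPM per kb for leukocytes.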

How the data were processed

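RNA of 6 WM266.4 libraries was compared, 3 neg.si against 3 RIPK4.si, grouped by the labels. Paired reads of poly(A) RNA came from the BGISEQ-500, and the authors trimmed with Cutadapt, mapped with TopHat to GRCh38.p13 and counted with HTSeq without regard to strand; versions are not given in the sources used here. Read pairs per gene, as whole numbers, make up the count columns the authors deposited. Their deposited signal columns hold the same counts over a DESeq2 size factor of each library, and were not used in tests. A further 6 columns hold the authors' comparison (mean, fold change, log2 fold change and its error, p and FDR) and were not used.

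Tests used edgeR 4.0.16 under R 4.3.3 (TMM normalisation, filterByExpr with a minimum count of 10, quasi-likelihood test, Benjamini-Hochberg adjustment). For intervals, the absolute log2 fold change over the root of F served as standard error. CPM use the TMM library sizes for all genes, and exon lengths and GC content come from GENCODE release 44, which holds 24416 of the 24526 gene identifiers. Coordinates of genes are those of the deposited table. The tests were checked on simulated data with less spread between libraries than here and with no GC trends, which gives no error rate for these libraries. Python 3.11.15, pandas 2.3.3, scipy 1.17.1 and matplotlib 3.10.9 made the summaries and plots. Alternatives were DESeq2 1.42.0, other normalisations, other filters, offsets that take out the GC content trend of every library (lowess, span 0.3), the replicate number as a block and each library left out in turn.

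Named genes are the 9 members, RIPK4, in each list every called gene and the 2 with the highest counts per kilobase (less any gene not described here), and the 3 genes most correlated with each member past the filter. The members and lists were chosen with earlier results of these data known. The lists are RIPK4 partners in keratinocytes, other epidermal transcription factors, paralogues of the members, barrier lipid genes, cornified envelope and suprabasal genes, basal keratinocyte and TP63-linked genes, epithelial genes under GRHL and OVOL factors, mesenchymal transcription factors, melanocyte lineage genes, and keratinocyte, fibroblast, leukocyte and endothelial markers.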

Additional observations from a re-analysis of the deposited data

How the results depend on the processing

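None of the 5 genes past the filter was called by edgeR or DESeq2 in any of the 14 alternatives. TP63 and GRHL3 were not called by edgeR in fits with no filter, and DESeq2 gave them no adjusted p. Over all genes, 125 calls became 564 with the GC trend removed, 437 with DESeq2 and 0 to 295 on leaving out 1 library. The log2 fold change of RIPK4 lay between -2.06 and -1.74 on leaving out 1 library, with an adjusted p from edgeR or DESeq2 of up to 0.106 over the alternatives. Directions that turned were those of GRHL1 (-0.0101 on removal of control library 2), KLF4 (-0.0736 on removal of control library 3, -0.00682 of silenced library 1), ELOVL4 (0.0166 on removal of control library 3) and, with no filter, TP63 (0.36 on removal of control library 2, 0.14 and 0.13 of silenced libraries 1 and 2, and 0.0177 with the replicate block and GC trend removed). On leaving out 1 library the ranges were -0.01 to 0.35 for GRHL1, -0.07 to 0.21 for KLF4, -0.56 to 0.02 for ELOVL4 and -0.38 to 0.36 for TP63. GRHL3 kept its direction (-1.92 to -1.01), as did TFAP2A and TFAP2C. Numbers of calls that differed from the fit of all libraries were, by edgeR with the GC trend removed, 1 in barrier lipid genes, 1 in cornified envelope genes, 3 in TP63-linked genes and 3 in melanocyte genes. With DESeq2 those that differed were 1 in cornified envelope genes, 1 in TP63-linked genes and 4 in melanocyte genes. On leaving out 1 library they were 0 to 1 in other epidermal transcription factors and 0 to 1 in melanocyte genes. The cause was not tested. TP63 and GRHL3 had few counts, and what this depth could detect was not tested.

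The replicate block gave 131 calls over all genes and kept the calls of RIPK4, VDR, PMEL, CDK2 and FBXO33. With the GC trend removed as well, the block gave 498 calls, 1 in TP63-linked genes and 3 in melanocyte genes. It gave 0 in barrier lipid genes and 0 in cornified envelope genes. Correlations of deviations from the group means between libraries that share a number were -0.242, 0.251 and 0.346 for numbers 1, 2 and 3, and not every library correlated best with its own number. A few low transcripts, such as KRT5, were counted only in the libraries numbered 1, so whether a shared number marks a pair is not known.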

Other observations

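A few keratinocyte transcripts were counted only, or almost only, in the libraries numbered 1 of both groups. KRT5, the basal keratin partnered with KRT14, had 19 counts in neg.si replicate 1 and 6 in RIPK4.si replicate 1, and 0 in each of the other 4 libraries. KRT14 had 5 and 5 counts in the same libraries, and KRT6A, a keratin of activated keratinocytes, had 11 and 10, again with 0 in the other 4. The desmosomal cadherins DSC3 (5 and 4, with 1 count elsewhere) and DSG1 (3 and 4, with 1 count elsewhere) were close to this distribution, while the cadherin DSG3 (4, 4 and 1 in neg.si replicates 1 to 3, 4, 0 and 4 in RIPK4.si) and SFN (5, 0 and 2, then 3, 1 and 2) were not. A rule chosen after these values were seen asked for at least 3 counts in both libraries of a number, a sum of at least 10, and at most 5% of that sum in the other 4 libraries. Of 24526 genes, 4 met it for number 1 (KRT5, KRT14, KRT6A and AL513327.3), 0 for number 2 and 5 for number 3, none of the latter a keratin. The named genes did not follow it, since TP63 had 7 and 5 counts in the libraries numbered 1 and 10, 4, 5 and 10 in the others, and GRHL3 had 13 and 3 against 15, 8, 8 and 3. Among the keratins in the lists used here, those present in every library were KRT18 (375 to 580 counts), KRT10 (305 to 465), KRT8 (80 to 130), KRT17 (27 to 55) and KRT15 (6 to 19). The source of these few reads was not tested. Pairs of libraries with unlike numbers were not put to the rule, so its counts do not tie the pattern to the number.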
